A study of Mus musculus with 2 samples.

Results

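Tenascins, thrombospondins, periostin, fibronectin and osteopontin are secreted proteins of the extracellular matrix. They were described as 10 genes (Tnc, Tnxb, Tnn, Thbs1, Thbs2, Thbs3, Thbs4, Postn, Fn1 and Spp1), taken by name from the 23647 genes of an RNA-seq table of mouse adipose stromal cells. The family was selected on the ratio of Tnc between the libraries, an extreme one, so the difference in Tnc is given as a description. The cells were PDGFRa+ cells sorted from the stromal vascular cells of inguinal fat, the white fat pad under the skin of the groin, and their poly(A) RNA was sequenced. There were 2 libraries, 1 labelled Sox9 PreASKO (the knockout) and 1 labelled Sox9 floxed (the wild type). Both came from mice labelled male and 3 weeks old that received doxycycline at postnatal day 1, and 3 mice were pooled for a sample. The labels do not say which promoter drives the recombination behind PreASKO. With 1 pooled library for each genotype there was no spread between replicates, and no test of the genotypes was possible. The intervals below state counting error alone, so they set one library against the other and say nothing of animals.

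Matricellular proteins sit in the matrix without being its main structural fibres, and bind cells through integrins and other surface receptors. Tenascin-C and osteopontin are best known from developing, wounded or inflamed tissue, whereas tenascin-X and fibronectin are regular parts of loose connective tissue. Thrombospondins modulate cell adhesion, collagen assembly and the release of active TGF-beta, and are described in adipose tissue as products of both stromal cells and adipocytes.

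The PreASKO library held 37597048 counts and the floxed library 61761645, so low PreASKO values are the less precise ones. Sox9, the targeted gene, stood at 17.0 CPM (its counts over the library total, scaled as CPM) in PreASKO, against 28.6 CPM in floxed. Pdgfra, the gene of the sorting marker, stood at 603 CPM in PreASKO and 716 CPM in floxed, and all 15 stromal markers were measured. The sex label of the PreASKO library did not hold throughout: Xist, which the inactive X chromosome of females transcribes, stood at 745 CPM in PreASKO and 3.24 CPM in floxed, while transcripts of the Y chromosome were found in both libraries. Ddx3y stood at 39.5 CPM in PreASKO and 40.6 CPM in floxed, and the other Y-linked genes were lower in PreASKO, Kdm5d at 10.9 CPM in PreASKO and 20.2 CPM in floxed, Eif2s3y at 10.98 CPM in PreASKO and 17.6 CPM in floxed, and Uty at 9.12 CPM in PreASKO and 12.5 CPM in floxed. Genotype and this discrepancy cannot be told apart in any difference below, and neither library can be left out. Macrophage markers were higher in PreASKO as well, in 17 of 17 measured genes with a median log2 ratio of 0.86. Their summed level was 3120 CPM in PreASKO and 1662 CPM in floxed. None of them was at 0 in either library, and their part in the results below was not tested. In bulk RNA, fewer cells of a type and less RNA per cell cannot be told apart.

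The stretches before the annotated start sites of 4 members show the DNA next to the genes described below. Tnc and Spp1 were the members with the highest ratios, Thbs2 barely differed, and Postn held the only match to a SOX core among the members' windows. The sequences are the 250 bases before the outermost RefSeq start on GRCm38.p6, the assembly that mm10 is based on, and are given on the strand of the gene. They lie at chr4:64047016-64047265 (minus strand) for Tnc, chr5:104434861-104435110 (plus strand) for Spp1, chr3:54359017-54359266 (plus strand) for Postn and chr17:14694263-14694512 (minus strand) for Thbs2. Capitals mark matches to the motifs searched.
Tnc: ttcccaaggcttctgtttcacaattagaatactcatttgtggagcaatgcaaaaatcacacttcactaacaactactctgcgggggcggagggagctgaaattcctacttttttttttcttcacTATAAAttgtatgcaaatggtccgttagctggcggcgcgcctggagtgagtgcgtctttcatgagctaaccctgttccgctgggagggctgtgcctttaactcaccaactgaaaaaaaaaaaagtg
Spp1: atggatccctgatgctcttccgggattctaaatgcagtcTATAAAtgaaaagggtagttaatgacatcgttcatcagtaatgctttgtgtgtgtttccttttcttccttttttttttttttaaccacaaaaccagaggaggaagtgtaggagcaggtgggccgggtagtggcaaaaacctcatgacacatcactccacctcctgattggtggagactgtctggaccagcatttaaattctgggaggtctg
Postn: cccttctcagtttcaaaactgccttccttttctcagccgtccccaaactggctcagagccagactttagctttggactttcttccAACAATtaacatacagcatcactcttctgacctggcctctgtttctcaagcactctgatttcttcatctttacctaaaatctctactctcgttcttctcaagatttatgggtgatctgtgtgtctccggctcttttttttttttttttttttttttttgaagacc
Thbs2: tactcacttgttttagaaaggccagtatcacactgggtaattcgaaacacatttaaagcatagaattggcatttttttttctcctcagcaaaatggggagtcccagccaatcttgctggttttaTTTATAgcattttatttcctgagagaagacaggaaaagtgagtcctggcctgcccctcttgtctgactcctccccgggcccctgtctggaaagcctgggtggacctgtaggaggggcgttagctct
Motifs were searched on both strands as TATAAA (the TATA box), AACAAT (the core bound by SOX factors), TGANTCA (AP-1), CACGTG (an E-box), GTCTAGAC (SMAD) and GGAATG (TEAD), and no matches overlapped in these 4 windows. Tnc held TATAAA from 126 to 121 bases before its start, Spp1 held it from 211 to 206 bases before its start, and Thbs2 held it on the opposite strand from 126 to 121 bases before its start. Postn held AACAAT from 165 to 160 bases before its outermost start. At its other annotated start, whose window is not printed, Postn held TATAAA from 26 to 21 bases before that start. Of 32851 windows of the same length in the RefSeq table, 12.4% held TATAAA and 9.42% AACAAT. Promoters of 8 of the 10 members, with 11 start sites, were in that table. A match describes letters only, and counts per gene do not show which start site was used.

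**Figure D1:**
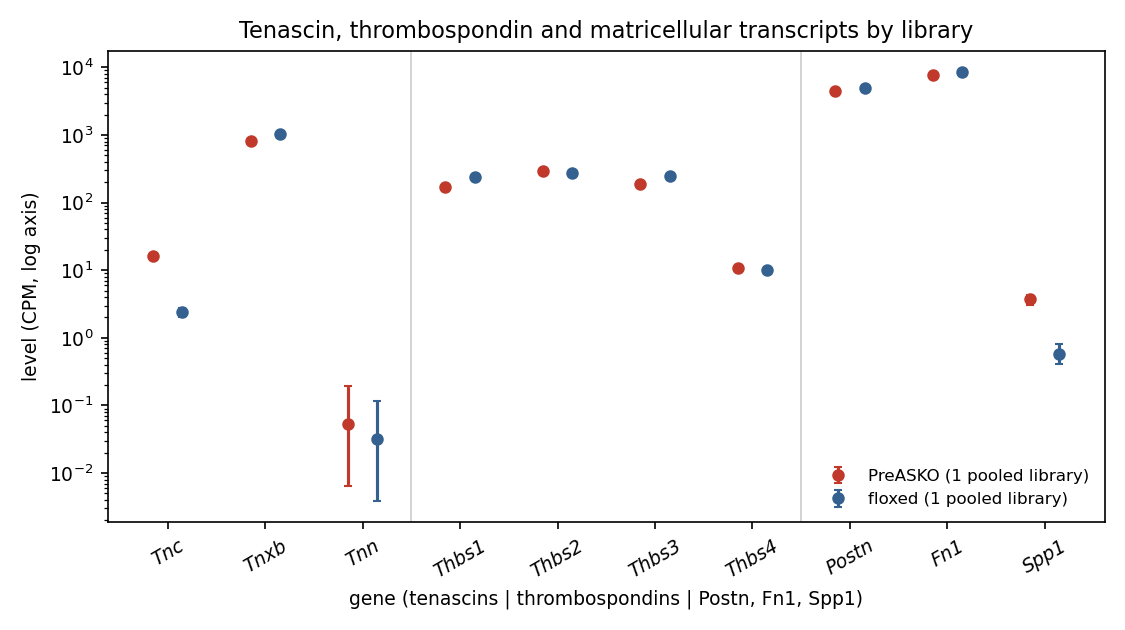
Level of each member in CPM (log axis) in the PreASKO library (red) and the floxed library (blue), with exact 95% Poisson intervals for counting error as bars. Tnc and Spp1 stand higher in PreASKO by more than their bars, Tnn is near 0 in both, and the other members differ little on this scale.

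The abundant and the scarce tenascin differed in opposite directions. Tnc (Entrez ID 21923; chromosome 4, 63959785 to 64047015), which encodes tenascin-C, a glycoprotein of provisional matrix that binds integrin alpha 9 among others, held 610 counts in PreASKO and 147 in floxed. This gave 16.2 CPM in PreASKO (95% interval 14.96 to 17.6) and 2.38 CPM in floxed (2.01 to 2.80), a ratio of 6.82 (5.68 to 8.22). On the log2(CPM + 1) scale, which understates differences of low genes, the ratio of Tnc was 2.35, and 0.0146% of the 13684 genes measured (those averaging 1 CPM or more over both libraries) had a higher one. Tnxb (Entrez ID 81877; chromosome 17, 34660453 to 34719815), which encodes tenascin-X, a collagen-associated protein whose loss causes a form of Ehlers-Danlos syndrome in humans, stood at 804 CPM in PreASKO and 1024 CPM in floxed, a ratio of 0.785 (0.775 to 0.796). Tnn (Entrez ID 329278; chromosome 1, 160085029 to 160153692), which encodes tenascin-W, a protein of bone and tumour stroma, held 2 counts in each library. That is below the 3 counts taken as the limit of detection, so no ratio is given. Tnr, the tenascin of the nervous system, was no member and held 0 counts in PreASKO and 2 in floxed.

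Because shares within a family do not depend on the scaling of the libraries, the make-up of the tenascin RNA was compared too. Tnc took 1.98% of the counts of Tnc, Tnxb and Tnn in PreASKO (95% Clopper-Pearson interval 1.83% to 2.14%), against 0.232% in floxed (0.196% to 0.273%). Tnxb took 98.0% of these counts in PreASKO and 99.8% in floxed. Tnc was thus a minor tenascin transcript in both libraries, also per length: per kilobase of exon, Tnxb stood at 65.9 CPM in PreASKO and 83.9 CPM in floxed, while Tnc stood at 2.09 CPM in PreASKO and 0.306 CPM in floxed. Among 12623 genes with a known length, 73.2% had a higher level per kilobase than Tnc in PreASKO and 96.6% in floxed.

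Cells known for Tnc in other tissues were looked for by their markers. Of 7 tenocyte markers, the defining Scx was at 0.0266 CPM in PreASKO and 0.0648 CPM in floxed, that is, near 0, and the summed list was at 192 CPM in PreASKO and 315 CPM in floxed. In that list, Egr2 made up most of the sum, at 155 CPM in PreASKO and 282 CPM in floxed, and Fmod stood at 31.5 CPM in PreASKO and 31.7 CPM in floxed. Of the 3 measured genes of that list, 1 was higher in PreASKO, Kera, which was singled out after its value was seen. Kera stood at 4.76 CPM in PreASKO and 0.793 CPM in floxed. Tnmd, also singled out in that way, fell short of the minimum mean level of 1 CPM. It held 47 counts in PreASKO and 39 in floxed, a ratio of 1.98 (1.27 to 3.11). Schwann cell markers summed to 101 CPM in PreASKO and 121 CPM in floxed, with 1 of 4 measured genes higher in PreASKO, and Sox10, at 0 in floxed, stood at 0.771 CPM in PreASKO. Myofibroblast markers summed to 196 CPM in PreASKO and 181 CPM in floxed, with 2 of 5 measured genes higher, led in level by Myl9 at 94.6 CPM in PreASKO and 95.3 CPM in floxed. Lrrc15 in that list, singled out after its value was seen, stood at 24.1 CPM in PreASKO and 12.3 CPM in floxed, a ratio of 1.96 (1.78 to 2.17). Actg2, also singled out in that way, fell short of the minimum mean level. It held 66 counts in PreASKO and 15 in floxed, a ratio of 7.23 (4.08 to 13.6). Cthrc1 was slightly higher, at 53.6 CPM in PreASKO and 49.0 CPM in floxed, a ratio of 1.09 (1.03 to 1.16). Acta2 and Tagln were not higher: Acta2 stood at 16.7 CPM in PreASKO and 18.2 CPM in floxed, and Tagln at 5.35 CPM and 5.38 CPM. Cnn1, which like Actg2 fell short of that level, had a ratio of 0.597 (0.230 to 1.39). Mural markers summed to 319 CPM in PreASKO and 314 CPM in floxed. The part of these cells in the Tnc difference was not tested.

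The thrombospondins differed little, and Thbs1 was the lowest of them relative to floxed. Thbs1 (Entrez ID 21825; chromosome 2, 118111876 to 118127133), which encodes a trimeric protein that activates latent TGF-beta and binds CD47 and CD36, stood at 168 CPM in PreASKO and 238 CPM in floxed, a ratio of 0.703 (0.683 to 0.725). Thbs2 (Entrez ID 21826; chromosome 17, 14665500 to 14694262), its closest relative and a regulator of collagen fibrils, stood at 289 CPM in PreASKO and 276 CPM in floxed, a ratio of 1.05 (1.02 to 1.07). Thbs3 (Entrez ID 21827; chromosome 3, 89215180 to 89226841), a pentameric thrombospondin of skeletal tissues, stood at 188 CPM in PreASKO and 244 CPM in floxed, a ratio of 0.768 (0.747 to 0.790). Thbs4 (Entrez ID 21828; chromosome 13, 92751586 to 92794818), also pentameric and best known from tendon, muscle and heart, stood at 10.9 CPM in PreASKO (410 counts) and 10.1 CPM in floxed (623 counts). Its ratio of 1.08 (0.952 to 1.23) was the only one of a measured member whose counting interval held 1. Comp, a pentameric thrombospondin of cartilage that was no member, held 0 counts in PreASKO and 11 in floxed. The counting interval of its ratio reached up to 0.655.

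Within the family, the share of Thbs2 was higher and that of Thbs1 lower in PreASKO, but their order depended on which counts were used. Thbs2 took 44.1% of thrombospondin counts in PreASKO (43.5% to 44.7%), against 35.9% in floxed (35.4% to 36.3%). Thbs1 took 25.6% in PreASKO (25.1% to 26.2%), against 31.0% in floxed (30.6% to 31.4%). The share of Thbs3 was 28.7% in PreASKO and 31.8% in floxed, and that of Thbs4 was 1.66% in PreASKO and 1.31% in floxed. Per kilobase, Thbs1 and Thbs2 were close in floxed, at 39.3 CPM and 39.4 CPM, whereas in PreASKO they stood at 27.6 CPM and 41.2 CPM. The deposited table splits each gene's counts into a raw and a repeat-distributed column, which were added here. For Thbs2 the raw column held 49.6% of counts in PreASKO and 37.3% in floxed, and with the repeat-distributed column alone its log2 ratio turned from 0.07 to -0.20. With that column alone, an alternative chosen after seeing the data for these shares, Thbs2 took 28.7% of thrombospondin counts in PreASKO and 26.1% in floxed, and Thbs1 33.1% in PreASKO and 35.95% in floxed. Thbs1 then took more than Thbs2 in both libraries, and the genes stood closer together in PreASKO, whereas in the summed counts they stood further apart there. Thbs3 shares 318 exonic bases with Mtx1 on the opposite strand, and as the use of strand is not given, reads there cannot be assigned. Mtx1 stood at 16.5 CPM in PreASKO and 20.9 CPM in floxed. Other members share exonic bases too, and reads there cannot be assigned either. Spp1 shares 309 with Gm42793 on the same strand, a gene with no value here. On the opposite strand, Fn1 shares 292 with Apol7d, Thbs1 208 with Gm29233, Tnc 176 with 8030451A03Rik and Tnxb 3 with Cyp21a2-ps.

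**Figure D2:**
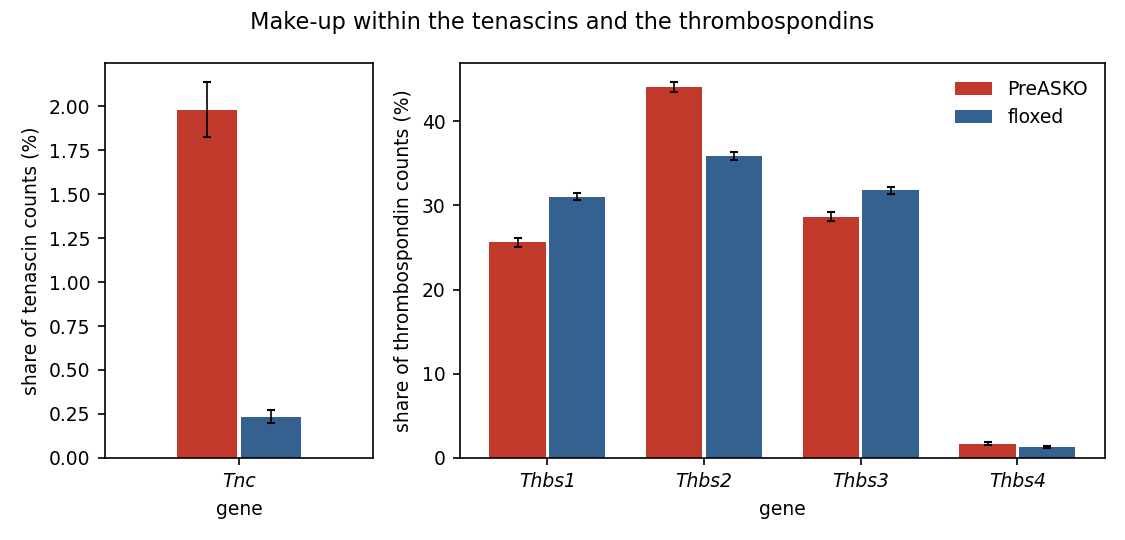
Share of each gene in the counts of its family (%) in PreASKO (red) and floxed (blue), with exact 95% binomial intervals for counting error. Tnc takes 1.98% of tenascin counts in PreASKO and 0.232% in floxed, and the share of Thbs2 is higher and that of Thbs1 lower in PreASKO.

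Fn1 and Postn were the most abundant members and were slightly lower in PreASKO. Fn1 (Entrez ID 14268; chromosome 1, 71585473 to 71653280), which encodes fibronectin, the adhesive glycoprotein that cells assemble into fibrils through integrin alpha 5 beta 1, stood at 7789 CPM in PreASKO (292852 counts) and 8453 CPM in floxed (522088 counts), a ratio of 0.921 (0.917 to 0.926). Postn (Entrez ID 50706; chromosome 3, 54359267 to 54391041), which encodes periostin, a fasciclin-domain protein that takes part in collagen cross-linking, stood at 4444 CPM in PreASKO and 5026 CPM in floxed, a ratio of 0.884 (0.879 to 0.889). Together with the other 8 members they made up 1.37% of all counts in PreASKO and 1.53% in floxed, and 56.8% of the members' counts in PreASKO were of Fn1, against 55.3% in floxed. In the authors' deposited table, the fold of Fn1 was 0.930, near the ratio given here. That of Postn was 0.789, further from 1 than the ratio of 0.884 found from its counts. The reason for this gap was not tested.

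Spp1 was low in both libraries and higher in PreASKO by more than counting error. Spp1 (Entrez ID 20750; chromosome 5, 104435111 to 104441053) encodes osteopontin, a phosphorylated glycoprotein of bone matrix that is also made by activated macrophages and binds integrins and CD44. It stood at 3.70 CPM in PreASKO (139 counts; 3.11 to 4.37) and 0.583 CPM in floxed (36 counts; 0.408 to 0.807), a ratio of 6.34 (4.37 to 9.42) and a log2 ratio of 1.57. Only 0.241% of genes had a higher log2 ratio. The summed macrophage markers had a ratio of 1.88 (1.86 to 1.89) in the same direction, with Lyz2 at 843 CPM in PreASKO and 387 CPM in floxed, C1qb at 360 CPM in PreASKO and 190 CPM in floxed, and C1qc at 337 CPM in PreASKO and 167 CPM in floxed. Their part in the Spp1 difference was not tested.

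Read against all genes, the members did not share a direction. Of the 9 members that passed the filter of 1 CPM, which leaves out Tnn, 2 were at least 2-fold higher in PreASKO, where 2.11% of all genes were. None was at least 2-fold lower, where 1.52% of all genes were, and 7 lay within 1.5-fold, as did 83.9% of all genes. The counting interval lay wholly above 1 for 3 members and wholly below 1 for 5, against 33.4% and 41.4% of all genes. The median log2 ratio was -0.12 over the 9 members and -0.04 over all genes. The higher members include Tnc, for which the family was chosen, so these counts support nothing about the family. Ordered by level per kilobase in floxed, the members ran from Fn1 (723 CPM) and Postn (578 CPM) through Tnxb, Thbs3, Thbs2, Thbs1, Thbs4, Spp1 and Tnc to Tnn. The counting intervals of Thbs2 and Thbs1, and of Spp1 and Tnc, overlapped in this order. In PreASKO, where Fn1 stood at 667 CPM and Postn at 511 CPM per kilobase, Thbs2 came before Thbs3 and the rest of the order was the same, with only the intervals of Spp1 and Tnc overlapping between neighbours. Over the 2 libraries, the 5 genes averaging 5 CPM or more whose log2 ratio came nearest to that of Tnc were Rsad2 (1.92), LOC105245340 (1.85), Lepr (1.83), Cxcr4 (1.79) and Ifit3 (1.77).

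**Figure D3:**
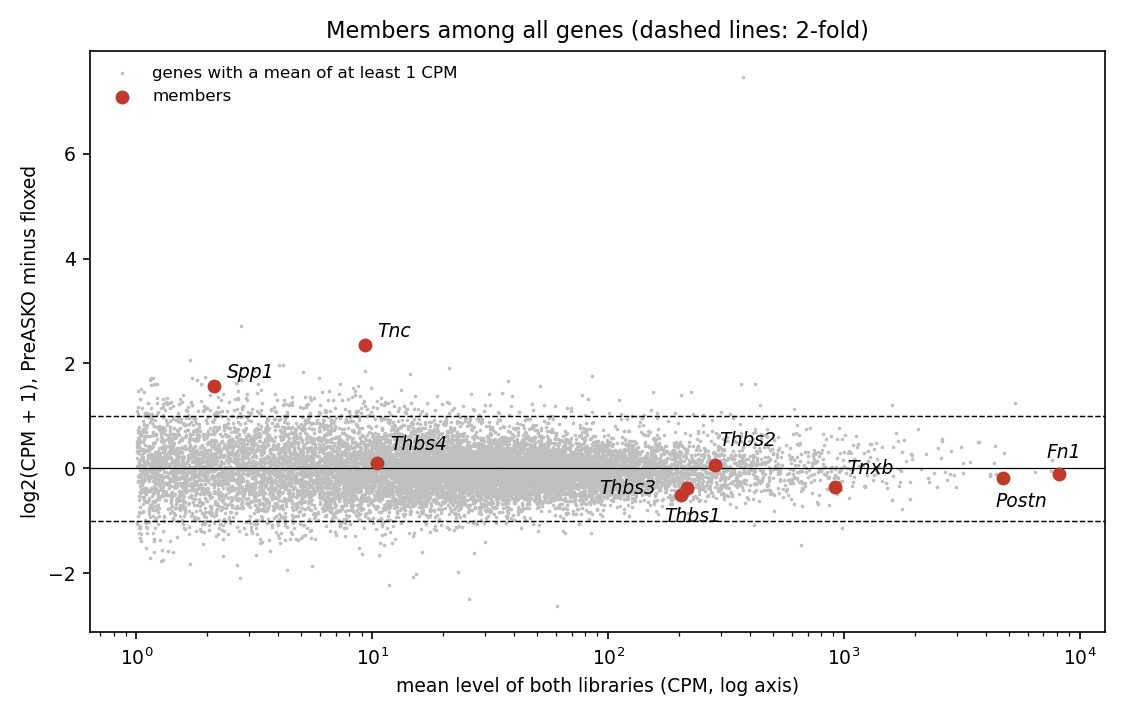
Difference in log2(CPM + 1), PreASKO minus floxed, against the mean level of both libraries (CPM, log axis) for 13684 genes (grey) and the 9 measured members (red), with 2-fold as dashed lines. Tnc (2.35) and Spp1 (1.57) lie above the upper line and the other members near 0, and the highest grey point is Xist.

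Other matricellular genes, from a list of relatives, stayed close to 0 as a group. Of 31 measured, 15 were higher and 16 lower in PreASKO, with a median log2 ratio of -0.02. Smoc1, a calcium-binding basement membrane protein gene that antagonizes BMP signalling, was the lowest, at 15.9 CPM in PreASKO and 43.9 CPM in floxed (log2 ratio -1.41). Wisp2 of the CCN family stood at 13.3 CPM in PreASKO and 6.10 CPM in floxed (1.01). Angptl4, an inhibitor of lipoprotein lipase, stood at 385 CPM in PreASKO and 253 CPM in floxed (0.61), and Sparcl1 at 230.5 CPM in PreASKO and 167 CPM in floxed (0.46). Npnt, a basement membrane ligand of integrin alpha 8 that was named after its value was seen, stood at 2.29 CPM in PreASKO and 0.486 CPM in floxed. The CCN genes Cyr61 (1199 CPM in PreASKO and 1309 CPM in floxed) and Ctgf (19.1 CPM in PreASKO and 25.2 CPM in floxed) were slightly lower. List members with no matching row were not analysed here.

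Receptors of these proteins were present in both libraries and differed less than Tnc and Spp1 did. Of 29 measured, 18 were higher and 11 lower in PreASKO, with a median log2 ratio of 0.14. The largest differences were those of the laminin receptor subunit gene Itga6, at 11.7 CPM in PreASKO and 5.29 CPM in floxed (1.01), of the syndecan genes Sdc3, at 45.5 CPM in PreASKO and 25.7 CPM in floxed (0.80), and Sdc1, at 62.0 CPM in PreASKO and 40.2 CPM in floxed (0.61), and of Scarb1, at 19.7 CPM in PreASKO and 29.4 CPM in floxed (-0.55). Some receptors were also chosen, after their values were seen, for binding a member, and they do not stand for the whole list. Itga9, a subunit that binds tenascin-C and osteopontin, had a ratio of 1.16 (1.11 to 1.21), at 87.9 CPM in PreASKO and 75.8 CPM in floxed. Itga8, another integrin subunit that binds tenascin-C, had a ratio of 1.40 (1.19 to 1.64), at 7.74 CPM in PreASKO and 5.52 CPM in floxed. Sdc4, a fibronectin co-receptor, had a ratio of 1.25 (1.22 to 1.29), at 237 CPM in PreASKO and 189 CPM in floxed. The thrombospondin-1 receptor gene Cd47 stood at 394 CPM in PreASKO and 344 CPM in floxed, and Cd36 at 244 CPM in PreASKO and 205 CPM in floxed. The fibronectin receptor subunit genes Itga5 (149 CPM in PreASKO and 144 CPM in floxed) and Itgb1 (449 CPM in PreASKO and 405 CPM in floxed) were among them, and Cd44, a receptor of osteopontin, stood at 146 CPM in PreASKO and 174 CPM in floxed.

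Genes known to act on the expression of these matrix genes, and proteases that cut their products, were mixed too. Of 25 measured regulators of the TGF-beta, YAP and related routes, 10 were higher and 15 lower, with a median of -0.12. Runx2, a skeletal transcription factor, stood at 7.66 CPM in PreASKO and 3.21 CPM in floxed (1.04). The receptor gene Tgfbr1 (33.3 CPM in PreASKO and 48.5 CPM in floxed) and the ligand gene Tgfb3 (51.4 CPM in PreASKO and 68.4 CPM in floxed) were lower. Of 22 measured proteases and inhibitors, 10 were higher and 12 lower, with a median of -0.02. The gelatinase gene Mmp9 stood at 37.2 CPM in PreASKO and 16.8 CPM in floxed (1.11), the stromelysin gene Mmp3 at 159 CPM in PreASKO and 82.1 CPM in floxed (0.94), Htra3 at 831 CPM in PreASKO and 682 CPM in floxed (0.29), and Mmp14 at 534 CPM in PreASKO and 645 CPM in floxed (-0.27). Macrophages also make Mmp9, and their markers were higher in the same library (median 0.86). The part of these cells in the Mmp9 difference was not tested.

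**Figure D4:**
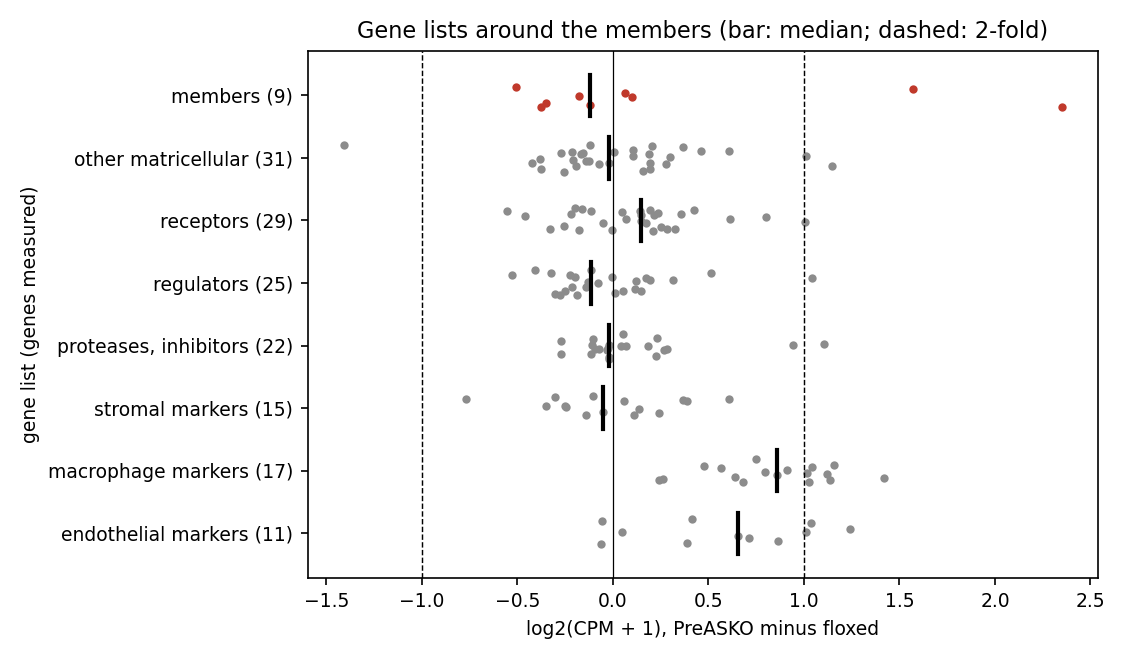
Difference in log2(CPM + 1), PreASKO minus floxed, of each measured gene (points) in the lists named on the left, with the median of a list as a black bar and 2-fold as dashed lines. Medians of the matricellular, receptor, regulator and protease lists lie between -0.12 and 0.14, and that of macrophage markers is 0.86.

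The remaining marker lists describe what else the sorted cells held. Endothelial markers had a median log2 ratio of 0.66 over 11 measured genes, but their sum, led by Lyve1 and Tek, was 502 CPM in PreASKO and 483 CPM in floxed. Erythroid markers summed to 147 CPM in PreASKO and 68.9 CPM in floxed, led by Hbb-bs, and T, NK and B cell markers to 12.0 CPM in PreASKO and 6.27 CPM in floxed. Only 2 of these 10 lymphocyte genes were measured, Cd4 (7.39 CPM in PreASKO and 2.80 CPM in floxed) and Cd79b (2.13 CPM and 0.405 CPM). Below the filter, T cell genes went opposite ways. Cd3e held 1 count in PreASKO and 91 in floxed, Cd8a 0 and 14, and Cd3g 39 and 2. Adipocyte markers summed to 1021 CPM in PreASKO and 1113 CPM in floxed, with 9 of 10 measured genes lower. Their median log2 ratio was -0.73, and the 1 higher gene, Fabp4, stood at 443 CPM in PreASKO and 216 CPM in floxed. Cartilage and bone markers, Sox9 included, summed to 25.4 CPM in PreASKO and 43.0 CPM in floxed, skeletal muscle markers to 7.21 CPM in PreASKO and 11.3 CPM in floxed, mesothelial markers to 8.70 CPM in PreASKO and 11.8 CPM in floxed, and epithelial markers to 0.638 CPM in PreASKO and 0.194 CPM in floxed. Col2a1, a defining cartilage gene, was near 0 in both libraries, at 0.0532 CPM in PreASKO and 0.372 CPM in floxed.

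The 2 members with the highest ratios were also those whose size depended most on the treatment of low counts. With a pseudocount of 5 CPM the log2 ratio was 1.52 for Tnc and 0.64 for Spp1, so that Spp1 no longer passed 2-fold, and with 0.1 CPM they were 2.72 and 2.48. The folds in the authors' deposited table were 6.88 for Tnc and 6.31 for Spp1. With the raw column alone, Tnxb turned to a log2 ratio of 0.26 and Thbs3 to 0.025, where that column held 0.0595% of Tnxb counts in PreASKO and 0.0316% in floxed, and 1.77% of Thbs3 counts in PreASKO and 1.20% in floxed. In that column Thbs4 stood at 1.06, with 54 counts in PreASKO and 31 in floxed, and Thbs1 at -1.15, with 2 counts in PreASKO, under the detection limit of 3, and 23 in floxed.

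**Figure D5:**
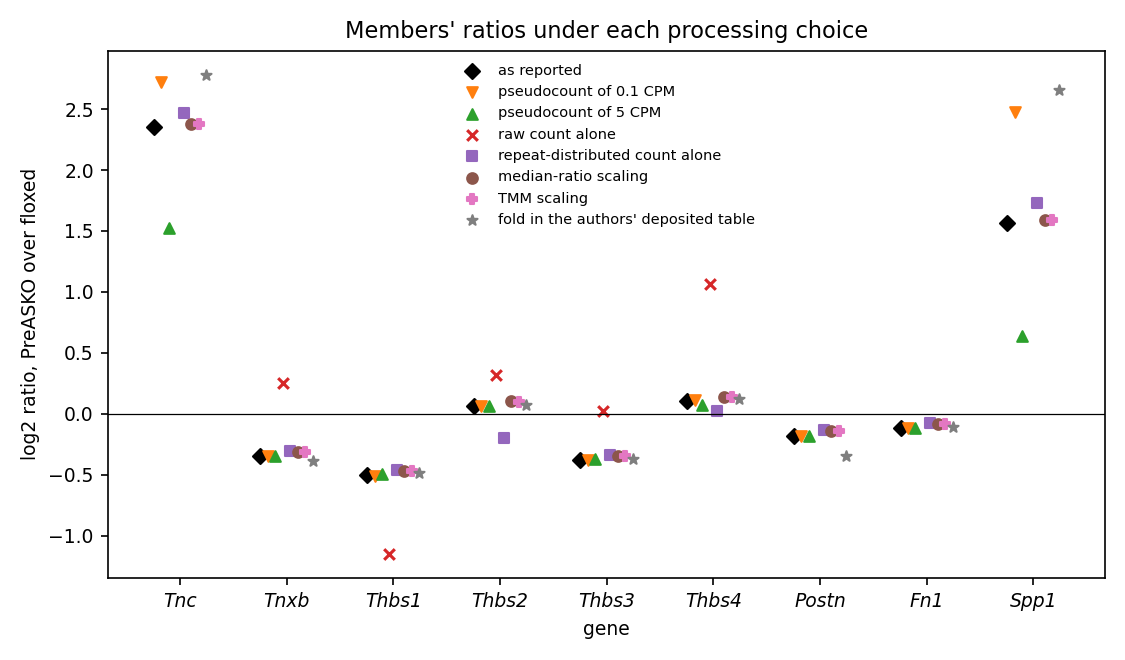
Log2 ratio of each measured member, PreASKO over floxed, as reported (black diamonds) and under each other processing choice (coloured symbols). Tnc and Spp1 are above 0 in every setting that gave a value, and the raw count alone, which holds few counts of these genes, departs furthest for Tnxb, Thbs1, Thbs3 and Thbs4.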

How the data were processed

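Poly(A) RNA-seq values came from 1 table of the series. Per the submitters' processing notes, reads were placed on mm10. Neither aligner, counter nor strand setting is stated there. Per the file headers, the authors deposited a raw count per gene (whole numbers), a repeat-distributed count (treated as an estimated count, rounded to whole numbers for intervals and TMM) and a fold change, a ratio of PreASKO over floxed whose normalization is not stated. Raw counts made up 24.4% of all counts in PreASKO and 21.9% in floxed. Both counts were added, as their ratio followed the deposited fold: among 11967 genes with at least 100 counts in each library, the fold over the count ratio was no further than 5% from its median, 1.68, in 97.9%. Of 23669 rows, 24 carried a date in place of a symbol and were named by Entrez ID, and rows were summed for 21 IDs. CPM is the summed count over the library total. Log2 ratios used a pseudocount of 1 CPM, and genes were measured at a mean of at least 1 CPM. Intervals were exact 95% Poisson (levels) and Clopper-Pearson (ratios, shares). With 1 library per genotype, no count model was fitted. Ratios, calls and intervals were checked on simulated counts. Exon lengths and overlaps came from GENCODE M21, and gene positions and promoters from RefSeq (GRCm38.p6). Start and orientation of 7 of 11 promoter windows were found near transcript starts in GENCODE. Named genes were all members, the other tenascins and thrombospondins, the 4 largest differences of each functional list and the 3 highest markers of a list (mean of at least 5 CPM), and genes nearest to Tnc; others are said to be chosen after their values were seen. One gene that this rule names is not reported here. Members, lists and alternatives were chosen with earlier results of these data known. Tools were Python 3.11.15, pandas 2.3.3, scipy 1.17.1, matplotlib 3.10.9, R 4.3.3 and edgeR 4.0.16 (TMM factors only).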

Additional observations from a re-analysis of the deposited data

How the results depend on the processing

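With a single library for each genotype, neither replicates nor batches could be left out. No paired analysis was possible because each genotype has 1 library. Values with a pseudocount of 0.1 CPM were 2.72 for Tnc and 2.48 for Spp1, and with 5 CPM 1.52 and 0.64. With the raw count alone, Tnxb turned to 0.26 (18 counts in PreASKO and 20 in floxed) and Thbs3 to 0.025, while Thbs1 was -1.15 (2 counts in PreASKO and 23 in floxed), Thbs2 0.32 and Thbs4 1.06. Tnc, Postn, Fn1 and Spp1 had at most 3 raw counts and gave no value. With the repeat-distributed count alone, Thbs2 turned to -0.20, and Tnxb was -0.30, Thbs1 -0.46, Postn -0.13 and Fn1 -0.071. Median-ratio scaling gave -0.31 for Tnxb, 0.10 for Thbs2, -0.14 for Postn and -0.081 for Fn1, and TMM scaling gave -0.31, 0.10, -0.14 and -0.082. Log2 folds of the authors' deposited table, an alternative chosen after seeing the data, were 2.78 for Tnc, 2.66 for Spp1, -0.38 for Tnxb, -0.34 for Postn and -0.10 for Fn1. No pseudocount is known to enter these folds. Over all genes, 289 passed 2-fold upward and 208 downward. These numbers became 515 and 412 with a pseudocount of 0.1 CPM, 58 and 28 with 5 CPM, 465 and 907 with raw counts, and 153 and 93 with a minimum mean of 5 CPM. At 1.5-fold they were 1080 and 1120, and at 3-fold 30 and 22. Of members at least 2-fold higher, 1 in place of 2 was found with a pseudocount of 5 CPM, the raw count alone, a minimum mean of 5 CPM and a 3-fold cutoff. With the raw count alone this 1 was Thbs4. Higher genes made up 58.1% of calls, 33.9% with the raw count alone and 67.4% with a pseudocount of 5 CPM. From raw counts the median of the regulators was -0.44, the endothelial median turned to -0.17, the skeletal muscle median to 0.28 and the mesothelial median to 0.45. The cause of shifts between count columns was not tested. The medians of other matricellular genes and of proteases lie so near 0 that both scalings move them to 0.015 and 0.018 (median ratio) or 0.014 and 0.017 (TMM).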
